A study of Mus musculus with 8 samples.

Results

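Open chromatin was examined at 36 cell cycle genes of mouse macrophages, as mapped by ATAC-seq, an assay in which a transposase inserts sequencing adapters where DNA is accessible. The genes cover replication licensing, DNA synthesis, cyclins, cyclin-dependent kinases, mitosis, the Rb-E2F switch, 2 kinase inhibitors and Myc. Peaks of all 8 libraries were merged where they overlapped by at least 1 base, and a merged region belonged to a gene when that gene's body was the nearest protein-coding one within 100 kb. This gave 191 regions of 87260 in all. Of these, 39 lay within 1 kb of an end of their gene and 152 did not. All 36 genes had at least 1 region (median 2, up to 32 at Cdk6). For 7 regions another gene was equally near, mostly at shared gene starts such as those of Mcm4 with Prkdc and Pcna with Cds2.

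The macrophages were grown from bone marrow of wild-type (WT) mice or Nfat5 knockout (KO) mice over 7 days with 25% L929 medium, which holds M-CSF because this fibroblast line secretes that macrophage growth factor. They were left untreated or given 0.3 ng/ml E. coli lipopolysaccharide (LPS), a bacterial cell wall component, for 2 h. The 4 groups were untreated WT, LPS-treated WT, untreated KO and LPS-treated KO, with 2 libraries each, numbered 1 and 2 here. The sources used here give neither the kind of Nfat5 allele nor the age and sex of the mice, and nothing states that libraries of a group came from separate cultures, so p-values measure only the spread between these libraries. The deposited lists give peak positions alone: depth is unknown, a peak's width in bases is the only quantity per region, and a region without a peak was not called, though it may have been open. Peak positions also give no check of the Nfat5 deletion itself.

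Cells enter the cycle when D-type cyclins with Cdk4 or Cdk6, and then E-type cyclins with Cdk2, phosphorylate the Rb protein and free E2F factors, which switch on genes of DNA replication. A later set of genes, for mitosis, is held down in resting cells through a promoter element known as the CHR, while CCAAT boxes in many of the same promoters bind the activator NF-Y. M-CSF drives macrophages of this kind to divide, and LPS is known to halt their division in G1.

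RefSeq promoters of build GRCm38.p6 were found for 28 of the 36 genes (33 windows of 250 bases before an annotated start). A called region overlapped an annotated start window of all 28 genes, and for 25 of them that region was called in all 8 libraries. The same shares over all protein-coding genes were not computed, so these 2 counts are not shown to be particular to the members. The sequences below are those whose peaks differed between groups (Mcm2, Ccnd3 and the inner start of E2f2), 2 under wide peaks in all 8 libraries (Bub1 and Cdk4) and that of Cdk1, which holds matches to 3 of the motifs. They run 5′ to 3′, and capitals mark motif letters: E2F sites (TTTCCCGC, TTTCGCGC, TTTGCCGC or TTTGGCGC), the CHR (TTTGAA), the CCAAT box (CCAAT), the E-box bound by Myc and its relatives (CACGTG) and the NFAT core (TGGAAA), on either strand. The E2f2 and Cdk1 sequences were chosen after their values were seen. The windows of E2f1 and Mki67, also under wide peaks, are not shown because they overlap their own gene body, which the E2f2 window shown also does.
Mcm2, chr6:88898781-88899030, minus strand: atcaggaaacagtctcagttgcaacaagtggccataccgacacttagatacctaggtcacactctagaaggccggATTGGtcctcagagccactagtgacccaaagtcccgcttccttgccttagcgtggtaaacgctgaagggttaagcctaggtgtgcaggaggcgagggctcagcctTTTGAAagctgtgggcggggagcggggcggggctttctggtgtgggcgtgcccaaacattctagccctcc
Ccnd3, chr17:47504801-47505050, plus strand: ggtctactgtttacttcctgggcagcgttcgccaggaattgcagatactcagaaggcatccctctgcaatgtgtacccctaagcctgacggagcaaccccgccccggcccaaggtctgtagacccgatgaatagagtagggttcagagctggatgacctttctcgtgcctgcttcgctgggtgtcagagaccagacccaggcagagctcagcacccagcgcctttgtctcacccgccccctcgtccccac
E2f2, chr4:136180532-136180781, plus strand: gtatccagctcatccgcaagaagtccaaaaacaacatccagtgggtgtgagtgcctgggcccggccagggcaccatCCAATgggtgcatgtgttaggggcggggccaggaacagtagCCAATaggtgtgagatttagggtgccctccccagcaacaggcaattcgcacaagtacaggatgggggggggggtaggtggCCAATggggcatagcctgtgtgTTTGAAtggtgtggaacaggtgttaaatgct
Bub1, chr2:127831860-127832109, minus strand: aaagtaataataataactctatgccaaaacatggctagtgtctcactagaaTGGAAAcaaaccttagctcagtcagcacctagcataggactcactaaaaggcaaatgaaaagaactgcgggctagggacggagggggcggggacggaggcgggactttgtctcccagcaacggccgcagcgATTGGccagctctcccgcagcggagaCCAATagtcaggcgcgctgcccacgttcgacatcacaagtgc
Cdk4, chr10:127063285-127063534, plus strand: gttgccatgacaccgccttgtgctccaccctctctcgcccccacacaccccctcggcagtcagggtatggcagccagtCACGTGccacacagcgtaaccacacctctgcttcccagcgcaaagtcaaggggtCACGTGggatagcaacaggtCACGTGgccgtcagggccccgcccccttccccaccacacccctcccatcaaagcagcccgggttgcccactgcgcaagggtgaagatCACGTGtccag
Cdk1, chr10:69352913-69353162, minus strand: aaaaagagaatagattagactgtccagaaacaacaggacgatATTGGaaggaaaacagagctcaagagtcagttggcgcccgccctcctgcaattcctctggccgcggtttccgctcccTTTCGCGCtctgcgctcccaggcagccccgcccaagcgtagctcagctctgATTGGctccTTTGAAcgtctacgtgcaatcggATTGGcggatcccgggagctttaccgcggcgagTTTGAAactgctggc
The Mcm2 and Ccnd3 windows were only grazed by their peaks, which covered 41 and 54 of the 250 bases, whereas those of Bub1, Cdk4 and Cdk1 lay wholly within their region. The Cdk4 window holds 4 E-boxes. The window of Cdk1, the kinase that starts mitosis, holds 1 E2F word, 2 CHR words and 3 CCAAT boxes, and that of Ccnd3 holds no match to any of the motifs.

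Over the 33 windows, CCAAT boxes stood in 24 (72.7%), against 35.4% of the 21263 windows of all protein-coding genes. E2F words stood in 6 (18.2%), at Cdk1, Cdk2, E2f3, Mcm5, Mcm6 and Mcm7, against 2.35% of all windows. The CHR was found in 8 (24.2% against 14.5%), the E-box in 3 (9.09% against 6.63%) and the NFAT core in 6 (18.2% against 17.0%). Median GC content was 59.6% in these windows and 55.6% in all. A match overlapping another motif was counted for both. These counts describe letters only.

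Most of these genes had an open gene end in every library. Of the 36 genes, 28 had a region within 1 kb of a gene end called in all 8 libraries. Counting also regions whose nearest gene is another one, it was 29 genes (80.6%), against 48.1% of 21887 protein-coding genes. Of the 191 regions 94 were called in all 8 libraries (49.2%, with 41.3% of all regions). These were 31 of the 39 gene-end regions (79.5%, with 70.8% of all 13966 gene-end regions) and 63 of the 152 others (41.4%, with 35.6% of the other regions). A single library called 31 regions (16.2%, with 20.1% of all regions).

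**Figure D1:**
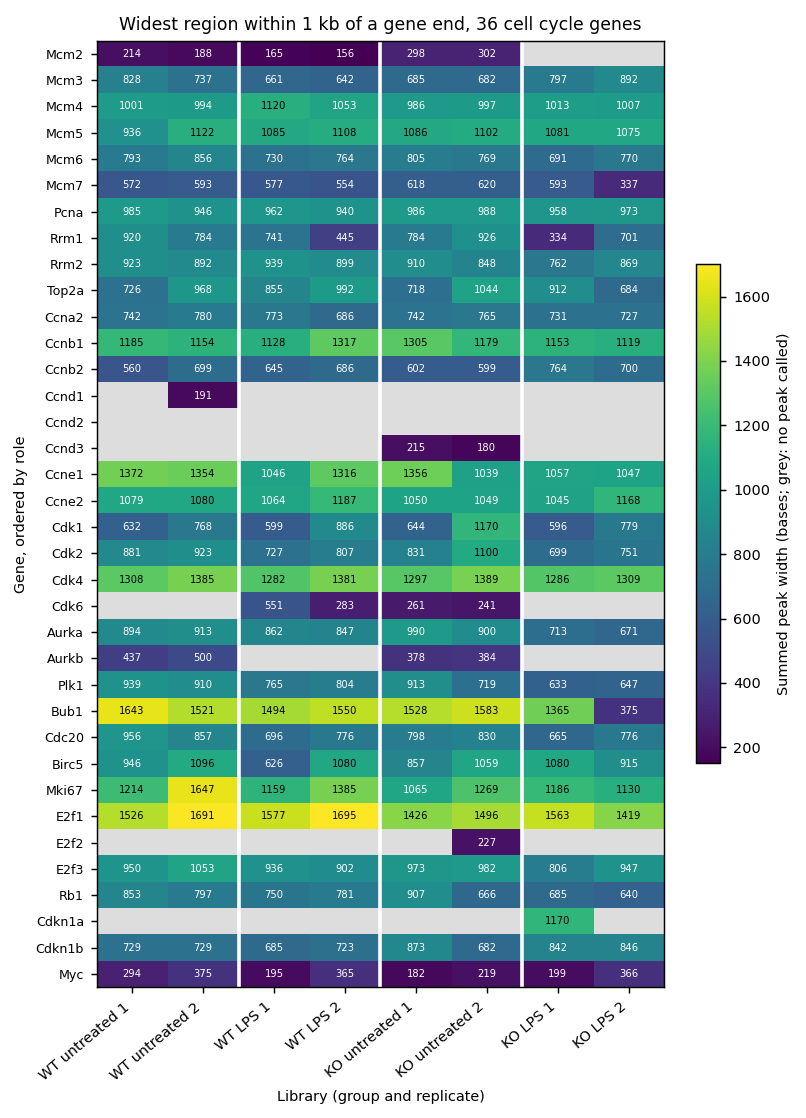
Summed width in bases of the peaks in the widest region within 1 kb of a gene end, for each of the 36 genes (rows, by role) in each library (columns). Grey means no peak: 28 genes have a peak in every library, while Ccnd1, Ccnd2, Ccnd3, E2f2 and Cdkn1a are grey in 6 or more.

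The 8 genes without a constant gene-end region of their own, leaving out regions nearer to another gene, were Mcm2, Ccnd1, Ccnd2, Ccnd3, Cdk6, Aurkb, E2f2 and Cdkn1a. All 3 D-type cyclins are among them, while the A-, B- and E-type cyclins are not. Ccnd3 and Cdk6 had constant regions at annotated starts farther inside the gene, 5.90 and 2.61 kb from the nearest gene end.

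In each library 131 to 145 of the 191 regions were called. Untreated WT called 138 and 145, LPS-treated WT 140 and 131, untreated KO 134 and 133, and LPS-treated KO 134 and 131. These numbers overlapped between treatments. Peaks at these genes summed to 78.9 and 83.0 kb in untreated WT, 75.4 and 76.3 kb in LPS-treated WT, 74.4 and 77.2 kb in untreated KO, and 72.7 and 69.2 kb in LPS-treated KO. Within each genotype both LPS libraries lay below both untreated ones, while untreated KO overlapped LPS-treated WT. All deposited peaks together covered 29.6 to 31.2 Mb per untreated library and 26.2 to 28.0 Mb with LPS. As a share of that total, the peaks at these genes made up 2.52 to 2.69 per mille untreated and 2.64 to 2.76 per mille with LPS, which overlapped.

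**Figure D2:**
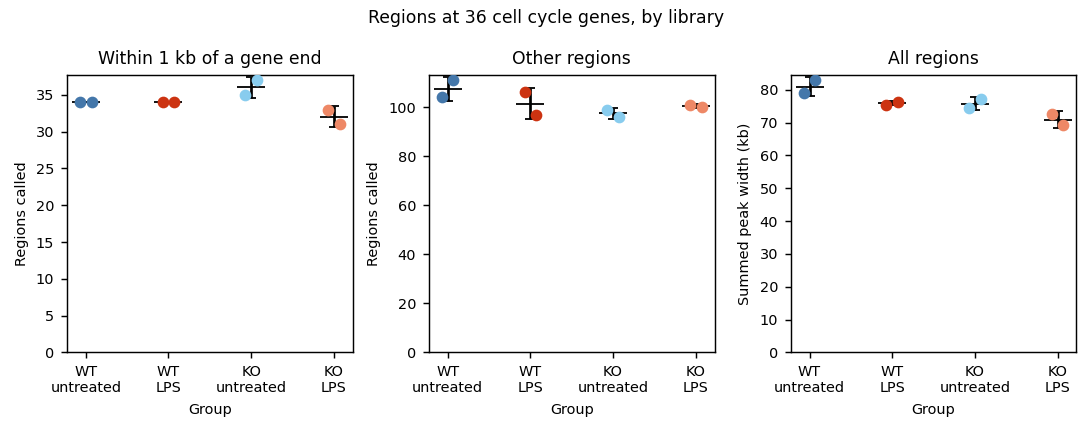
Regions called within 1 kb of a gene end (left) and elsewhere (middle), and summed peak width in kb (right), for each group. Points are libraries, the line is the mean and bars are ± 1 SD (n = 2). Gene-end calls range from 31 to 37, with the lowest values in LPS-treated KO.

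Replication licensing rests on the Mcm2 to Mcm7 helicase, which is loaded on DNA before S phase. Peaks at the shared start of Mcm4 and Prkdc were 986 to 1120 bases wide in the 8 libraries (mean 1021 ± 44.7, SD, n = 8). The Mcm5 start had 936 to 1122 bases, that of Mcm6 691 to 856 and that of Mcm3 642 to 892. At Mcm7 the region over the start it shares with Ap4m1 had 554 to 620 bases in 7 libraries and 337 in KO LPS library 2. All of these were called everywhere.

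Mcm2 differed from the other helicase genes. Its only region (chromosome 6, 88898505 to 88898821) had narrow peaks of 214 and 188 bases in untreated WT, 165 and 156 in LPS-treated WT, and 298 and 302 in untreated KO. Neither KO LPS library called it. The narrowest peak of any list was 156 to 174 bases wide, so the WT LPS peaks stood at the lower limit of what was listed, and with at least 50% of the region covered the difference between WT and LPS-treated KO was gone.

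Distal regions near Mcm5 differed in calls as well. Regions 22.6 and 26.4 kb away had peaks of 261 and 272, and of 240 and 388 bases, in untreated WT, with none in LPS-treated WT. Among KO libraries only untreated library 2 called them (251 and 173 bases). The region 24.3 kb away had peaks of 180 to 242 bases in all 4 WT libraries and 182 and 188 in LPS-treated KO, and none in untreated KO. A region 42.1 kb away was called only in LPS-treated WT (197 and 291 bases).

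Genes of DNA synthesis were open at their ends in all libraries. Pcna, the sliding clamp of DNA polymerase, had the steadiest width of them, 940 to 988 bases (967 ± 18.7, SD, n = 8). Rrm2, a subunit of the enzyme that makes deoxyribonucleotides, had 762 to 939, and Top2a, a topoisomerase of dividing cells, 684 to 1044. Rrm1, the partner of Rrm2, had 784 to 926 bases in the untreated libraries and 741, 445, 334 and 701 with LPS. Its LPS widths lay below every untreated one.

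A region 11.5 kb from Rrm2 (chromosome 12, 24696502 to 24696750) was called in all 4 untreated libraries and in no LPS library. Its peaks were 193 and 196 bases in WT and 177 and 243 in KO. A neighbouring region 10.3 kb from the gene had 670 to 745 bases in the untreated libraries, 160 in WT LPS library 1 and none in WT LPS library 2. In LPS-treated KO it had 171 and 651, so the KO libraries with LPS were far apart.

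Cyclins of the later phases had wide, steady peaks at their ends. Ccnb1 of mitosis had 1119 to 1317 bases, Ccnb2 560 to 764 and Ccna2 of S and G2 phase 686 to 780. Ccne2 had 1045 to 1187 bases. Ccne1, which drives entry into S phase, had 1372 and 1354 bases in untreated WT, 1046 and 1316 in LPS-treated WT, 1356 and 1039 in untreated KO, and 1057 and 1047 in LPS-treated KO. The groups overlapped.

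D-type cyclins, the sensors of growth factor signals, differed from other cyclins in having no gene-end region of their own called in all 8 libraries. Most regions of the D-type cyclins lay away from the ends, as did 8 of the 9 at Ccne1. Of the 29 regions at Ccnd1, Ccnd2 and Ccnd3, 2 lay within 1 kb of an end. The first was at the end of Ccnd1, called in WT untreated library 2 alone (191 bases). The other was at the start of Ccnd3 (chromosome 17, 47504997 to 47505211), called in both untreated KO libraries (215 and 180 bases) and in no other. The region over the inner Ccnd3 start had 463 to 612 bases in all 8 libraries, and a Ccnd1 region 1.52 kb outside the gene had 413 to 912.

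Of the 13 regions at Ccnd2, 3 were called in all 8 libraries, as were 41.3% of all regions. Several of the others differed in calls. At Ccnd2 a region 93.6 kb from the gene (chromosome 6, 127245741 to 127246424) had peaks of 406 and 470 bases in untreated WT, 673 and 566 in LPS-treated WT and 241 and 199 in LPS-treated KO, and none in untreated KO. With at least 50% of that region covered, LPS-treated KO no longer called it. A neighbour 87.9 kb away had 364 to 390 bases in all 4 LPS libraries and 243 in WT untreated library 1, the only untreated one. A further one, 99.4 kb away, had 331 and 281 bases in LPS-treated WT and 219 in WT untreated library 2, and no peak in KO.

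At Ccnd1, 4 of the 9 regions differed in calls, as did 16.7% of all regions. A region 3.46 kb outside the gene (chromosome 7, 144943292 to 144943721) had 247, 282, 249 and 403 bases in the 4 WT libraries and 219 in KO LPS library 1 alone. A region inside the gene had 283 and 162 bases in LPS-treated WT, 186 in WT untreated library 2 and none in KO. A region 51.8 kb away was called only in LPS-treated WT, with 162 and 344 bases. That 41.9 kb away had 228 and 230 bases in untreated WT and none in LPS-treated WT, while KO had 191 and 211 untreated and 192 in LPS library 1. A further region, 30.9 kb away (144970717 to 144971426), was called in all libraries but KO LPS library 1. Its peaks were 415, 516, 511 and 386 bases in WT and 181, 313 and 174 in KO, without overlap.

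Near Ccne1, 3 of its 9 regions differed (16.7% of all regions did). The region 34.3 kb away (chromosome 7, 38141824 to 38142306) had 347 and 456 bases in untreated WT, 214 and 192 in LPS-treated WT and 337 and 371 in untreated KO, and no peak in LPS-treated KO. The region 26.6 kb away had 174 to 306 bases in WT and 241 and 185 in LPS-treated KO, and no peak in untreated KO. A region 4.58 kb away had 295 and 264 bases in LPS-treated KO, none in untreated KO, and 1 call in each WT group.

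Of the cyclin-dependent kinases, Cdk4 had wide, steady peaks of 1282 to 1389 bases (1330 ± 46.8, SD, n = 8). Cdk2 had 881 and 923 bases in untreated WT, 727 and 807 in LPS-treated WT, 831 and 1100 in untreated KO, and 699 and 751 in LPS-treated KO. Every LPS value lay below every untreated one. Cdk1 had 596 to 1170 bases with no such order.

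Cdk6, the other partner of D-type cyclins, has a long gene (190 kb) and held 32 regions, 25 of them overlapping it. Of the 32 regions, 16 were called in all 8 libraries, as were 41.3% of all regions. The region over its annotated inner start had 825 to 968 bases, and the widest steady one, 79.0 kb from the nearest end, 1330 to 1471. A region 92.5 kb inside was unstable between replicates: 376 and 1698 bases in untreated WT and 219 and 1881 in untreated KO, against 1436 to 2089 with LPS.

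**Figure D3:**
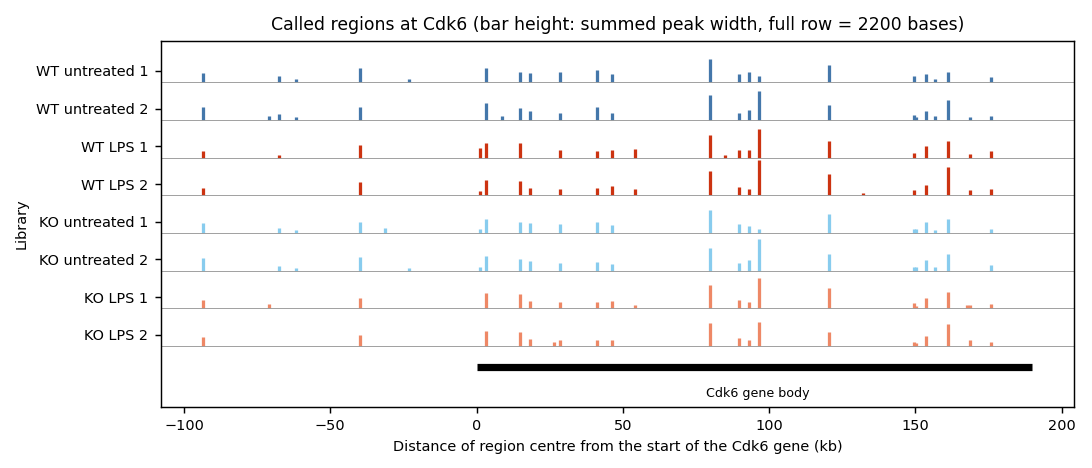
Regions called at Cdk6 in each library (rows), placed by the distance of the region centre from the gene start in kb. Bar height is the summed peak width, and the black bar is the gene body. The region 61.7 kb outside the gene has 180 to 197 bases in the 4 untreated libraries and no peak with LPS.

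Cdk6 had 2 of the 5 regions that every untreated library and no LPS library called. These were a region 61.7 kb outside the gene (chromosome 5, 3279065 to 3279261), with 183 and 197 bases in WT and 180 and 180 in KO, and a region inside it (3497660 to 3497915) with 192, 219, 203 and 239. Another outside region (3273213 to 3273587) had 375 and 335 bases in untreated WT, 281 and 268 in untreated KO and 177 in WT LPS library 1 only. In the other direction a region 53.8 kb inside had 531 and 365 bases in LPS-treated WT and 196 in KO LPS library 1, and none untreated. The region 21.0 kb from the far end had 224 and 322 bases in LPS-treated WT, 229 and 386 in LPS-treated KO, and 168 in WT untreated library 2.

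A region 0.904 kb inside the start of the Cdk6 gene (3341908 to 3342507) had 551 and 283 bases in LPS-treated WT and none in untreated WT. It had 261 and 241 in untreated KO and none in LPS-treated KO. A region inside the gene, 39.5 kb from its far end (3491275 to 3491505), had 172 and 215 bases in LPS-treated KO and 220 and 231 in untreated KO. It had 172 in WT untreated library 2 and none in LPS-treated WT.

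At 2 further Cdk6 regions, called everywhere, widths were ordered by treatment in opposite directions. The region 14.4 kb inside (3355452 to 3356326) had 590, 707, 637 and 673 bases untreated and 837, 830, 839 and 823 with LPS. That 40.6 kb inside (3381623 to 3382423) had 684, 731, 656 and 523 bases untreated and 396, 458, 396 and 378 with LPS. The groups did not overlap at either. On the log2 scale, relative to each library's median, the differences were 0.48 (SE 0.084) and -0.54 (SE 0.101). With limma over 36009 regions neither passed (adjusted p = 0.0627 and 0.0699, over the alternatives 0.0558 to 0.171 and 0.0438 to 0.166). They are named here after their values were seen.

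Among genes of mitosis, Aurkb had no called region with LPS. Aurkb encodes the kinase that corrects the attachment of chromosomes to the spindle. Its region over the gene end (chromosome 11, 69045444 to 69046034) had 437 and 500 bases in untreated WT and 378 and 384 in untreated KO, and none of the 4 LPS libraries called it. It kept this pattern with at least 50% of the region covered, at equal list length and with wider merging. Calls are yes or no, and the design gives this pattern no p-value.

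The remaining mitotic genes kept their gene-end regions in all libraries. Bub1, a checkpoint kinase, had 1365 to 1643 bases in 7 libraries and 375 in KO LPS library 2. Birc5, a partner of Aurkb, had 626 to 1096 bases. Plk1, a kinase of spindle assembly, had 939, 910, 913 and 719 bases untreated and 765, 804, 633 and 647 with LPS, which overlapped. Aurka, a centrosome kinase, had 894, 913, 990 and 900 bases untreated and 862, 847, 713 and 671 with LPS. Cdc20, an activator of the anaphase-promoting complex, had 956, 857, 798 and 830 untreated and 696, 776, 665 and 776 with LPS. At Aurka and Cdc20 every LPS value lay below every untreated one.

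Mki67, the gene of the proliferation marker Ki-67, behaved differently inside the gene than at its start. The start had peaks of 1065 to 1647 bases in all libraries. A region inside the gene (chromosome 7, 135696758 to 135697432) had 675 and 617 bases in LPS-treated WT and 414 and 469 in LPS-treated KO, and no untreated library called it. Its neighbour (135699087 to 135699921) had 654, 723, 709 and 783 bases with LPS, 273 in WT untreated library 1, none in WT untreated library 2, and 434 and 354 in untreated KO. All LPS values there were above all untreated ones. When regions called in at least 6 libraries were tested, the log2 difference of this neighbour with LPS was 1.25, with the uncalled library left out of its fit. That left 1 untreated WT library, so no p-value is given for it.

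Another inner region of Mki67 had the other order. It had 305, 301, 331 and 333 bases untreated and 283, 205, 199 and 183 with LPS (chromosome 7, 135710211 to 135710631), without overlap, but did not pass (log2 difference -0.44, SE 0.119, limma adjusted p = 0.146). Outside the gene, a region 82.9 kb away was called only in untreated WT (399 and 176 bases) and one 50.9 kb away only in untreated KO (449 and 246).

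In the Rb-E2F group, E2f1 had the widest gene-end peaks of all members, 1419 to 1695 bases (1549 ± 105, SD, n = 8). E2f3 had 806 to 1053 and Rb1 640 to 907. E2f2 had no constant region at its gene end: 1 library, KO untreated library 2, called a peak of 227 bases there.

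At E2f2 the region over its annotated inner start (chromosome 4, 136179653 to 136180705), whose sequence is given above, had the widest peaks of any region with a call difference (mean 788 bases). It had 1029 and 780 bases in untreated WT, 821 and 636 in untreated KO and 609 and 853 in LPS-treated KO. Neither WT LPS library called it. A smaller region 2.61 kb inside the gene (136174887 to 136175124) had 223, 212, 185 and 168 bases in the 4 untreated libraries and none with LPS. Between them, a region 5.08 kb inside was called only in LPS-treated WT (388 and 246 bases).

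Rb1, the retinoblastoma gene that holds E2F factors in check, had 2 regions called in untreated WT and in neither WT LPS nor untreated KO libraries. They had 211 and 196 bases (chromosome 14, 73257166 to 73257598, inside the gene) and 279 and 270 bases (73339723 to 73340009, 13.8 kb outside). The first also had a peak of 249 bases in KO LPS library 2, and its loss was not seen with at least 50% of the region covered. E2f3 had 11 regions and no call difference by this measure.

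The gene-end regions of the 2 inhibitor genes lay at unlike places, a start and a 3′ end. Cdkn1b, the gene of p27, had a steady start (682 to 873 bases in 8 libraries). Cdkn1a, the gene of p21, had its only gene-end peak past its 3′ end, in KO LPS library 1 alone (1170 bases). No library called a peak over the 250 bases before its outer start. A region 3.91 kb inside Cdkn1a had 435 to 784 bases in all libraries. The region over its inner start had 214 bases in WT untreated library 2, 291 and 255 in LPS-treated WT, 193 in KO untreated library 2 and 187 in KO LPS library 1. The region 1.42 kb inside the gene end had 180 and 227 bases in LPS-treated KO, none in untreated KO and 195 in WT LPS library 1. A region 14.5 kb outside had 312 and 217 bases in LPS-treated KO, 203 and 268 in untreated KO and 268 in WT untreated library 2, and none in LPS-treated WT. Near Cdkn1b a region 3.02 kb away had 246 and 281 bases in untreated WT, none in LPS-treated WT, and 176, 433 and 246 in 3 of the 4 KO libraries.

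Myc drives cell growth and cyclin expression. Of its 15 regions 12 (80%) were found in all 8 libraries, with 41.3% of all regions. None differed by group, with 16.7% of all regions differing. Both gene-end regions were narrow, with 190 to 281 and 182 to 375 bases. Several regions beyond the gene were wider, with 394 to 711 bases at 8.91 kb and 572 to 747 at 88.8 kb.

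Call differences were few at these genes, as over all regions. With LPS in WT 6 regions were gained (3.14%, with 3.96% of all regions) and 13 lost (6.81%, with 5.06%). A gained region was called in both LPS and neither untreated library of a genotype, and a lost region the reverse. In KO 8 were gained (4.19%, with 2.56%) and 11 lost (5.76%, with 4.07%). Of the 39 gene-end regions 1 was gained in WT (2.56%, with 1.42% of all gene-end regions) and 1 lost (2.56%, with 2.26%). In KO none was gained (0.959% of all gene-end regions) and 4 were lost, at Mcm2, Ccnd3, Cdk6 and Aurkb (10.3%, with 2.45%). With 2 libraries against 2 these counts carry no p-value.

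Over both genotypes 1 region, at Mki67, was called in all 4 LPS and no untreated library (0.524%, with 1.1% of all regions). The reverse held for 5 regions, at Aurkb, Rrm2, E2f2 and, with 2 regions, Cdk6 (2.62%, with 0.928%). At equal list length, with the widest 54027 peaks of each list kept, 4 were gained and 1, that of Aurkb, was lost. The share over all regions at that setting is not given here, so this shift is not shown to be particular to these genes. The peaks at the other lost regions were 168 to 243 bases wide and stood near the lower limit of width.

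**Figure D4:**
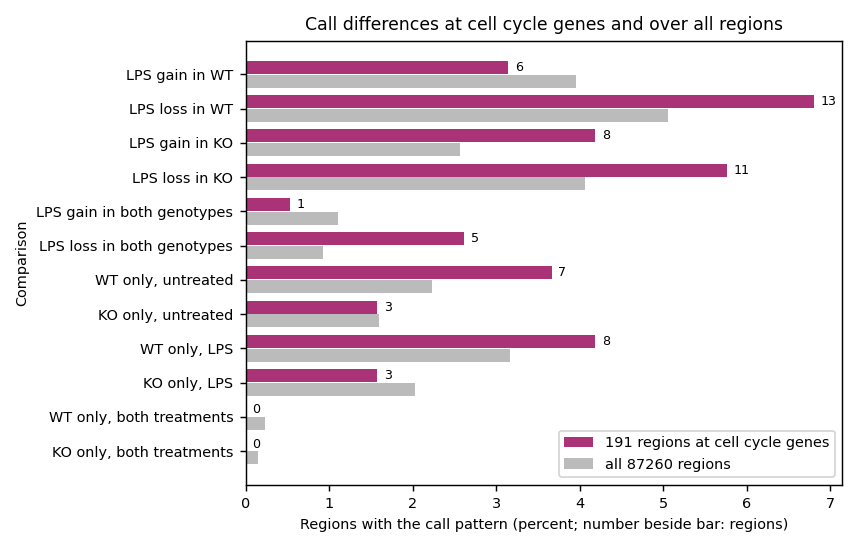
Percent of the 191 regions (purple) and of all 87260 regions (grey) with each call pattern. Numbers are regions. The largest ratio is at LPS loss in both genotypes, with 5 regions (2.62% against 0.928%).

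Between genotypes, 7 regions were called in both untreated WT libraries and neither KO one (3.66%, with 2.23% of all regions). The reverse held for 3 (1.57%, with 1.6%). With LPS 8 were called in WT only (4.19%, with 3.17%) and 3 in KO only (1.57%, with 2.03%). The 7 untreated regions lay at Ccnd1, Ccnd2, Ccne1, Mcm5, Mki67 and Rb1. No region was WT only or KO only in both treatments (0.231% and 0.147% of all regions). With at least 50% of a region covered 2 were WT only in both, the Ccnd2 region 93.6 kb away and the Ccnd1 region 30.9 kb away. At equal list length 1 was KO only in both, the Cdk6 region 39.5 kb from the far end of the gene. These counts were made after seeing the data. In all, 36 regions (18.8%, with 16.7% of all regions) had at least 1 call difference, and 14 of the 36 genes held one (38.9%, with 41.7% of the 17182 genes that had a region). The median width of the 36 regions was 266 bases, near the 251 of the 61 other regions that some library missed, and below the 602 of regions called in all libraries.

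**Figure D5:**
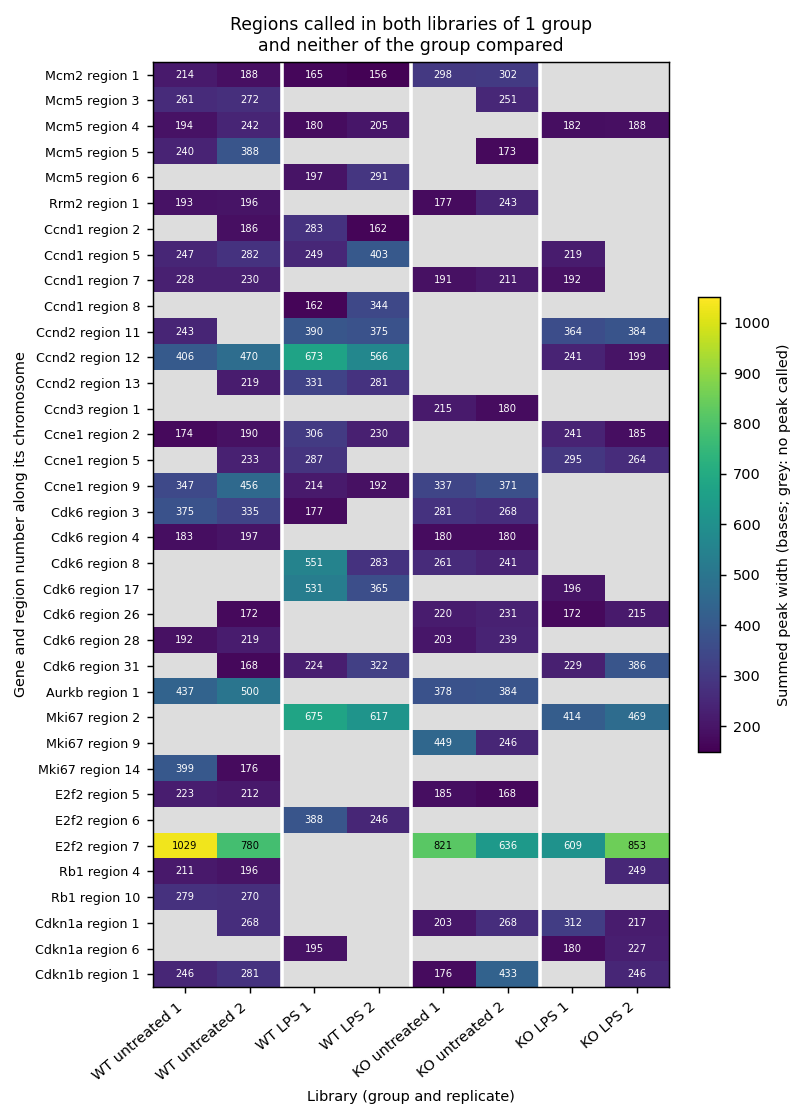
Summed peak width in bases at the 36 regions with a call difference between groups (rows) in each library (columns). Grey means no peak. Aurkb region 1 has 378 to 500 bases in the untreated libraries only, and Mki67 region 2 has 414 to 675 with LPS only.

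Widths at the 94 regions called in all libraries were tested with limma over all 36009 such regions, on log2 width relative to each library's median. That median was 570 to 590 bases untreated and 517 to 543 with LPS. Without this centring the median difference of all regions with LPS was -0.11. Between LPS and untreated over both genotypes, 392 regions passed at an adjusted p under 0.05 (1.09%, of which 0.642% wider and 0.447% narrower), and 0 of the 94. Over all regions those 392 fell to 0 when any 1 of the 8 libraries was left out. Unadjusted, 11 of the 94 had a limma p under 0.05, against 17.0% of all regions tested. The same test gave 0 members for LPS in WT (0.142% of all regions, 0.075% wider and 0.0667% narrower, 9 members at unadjusted p under 0.05 with 13.3% of all regions), LPS in KO (0%, 8 members with 10.8%) and KO against WT (0.0139%, 0.00555% wider and 0.00833% narrower, 7 members with 10.2%). It also gave 0 for the difference of the LPS effects (0.00278%, 3 members with 6.58%). A width that missed the threshold is not shown to be unchanged. The median log2 difference with LPS was 0.05 for the members and 0.01 for all regions.

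As deposited, widths of the 4 LPS libraries lay wholly below those of the 4 untreated ones at 13 of the 94 regions (13.8%, with 10.8% of all regions) and above at 4 (4.26%, with 2.6%). Relative to the library median it was 1 below (1.06%, with 3.6%), at Cdk6, and 7 above (7.45%, with 9.21%), at Mcm4, Mcm5, Ccnb2, Ccnd2, Ccnd3, Ccne2 and Cdk6. The order noted above for Rrm1, Cdk2, Aurka, Cdc20 and the inner Mki67 region with the narrower LPS peaks therefore held for deposited widths and not for those relative to the median. KO widths lay below WT at 5 regions as deposited (5.32%, with 2.97%) and above at 0 (1.08%). Relative to the median it was 3 below (3.19%, with 1.9%), at Ccnd3, Rb1 and Myc, and 1 above (1.06%, with 2.57%), at Ccne1.

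A further 104 cell cycle genes, listed for replication, mitosis and control of the cycle, had 420 regions. Of these, 237 were called in all 8 libraries (56.4%, with 41.3% of all regions). A gene-end region called in all 8 was present at 99 of the 104 genes. Of all 21887 protein-coding genes 48.1% had one, counting also regions whose nearest gene is another one. Orc1, Orc4, Rfc1, Lig1 and Tk1 had no gene-end region. With LPS, 10 regions were gained and 23 lost in WT (2.38% and 5.48%, with 3.96% and 5.06% of all regions). In KO 8 were gained and 12 lost (1.90% and 2.86%, with 2.56% and 4.07%). In both genotypes 3 were gained, 2 near Mdm2 and 1 near Pttg1 (0.714%, with 1.1% of all regions). As many were lost, near Rbl1, Incenp and Rfc2 (0.714%, with 0.928%). Incenp encodes the scaffold that anchors Aurkb on chromosomes. Its lost region (chromosome 19, 9936486 to 9936974) had 420 and 288 bases in untreated WT and 390 and 298 in untreated KO. As at all 27 listed mitosis genes (48.1% of all protein-coding genes), a region at a gene end of Incenp was called in all 8 libraries. A link with the Aurkb region was not tested.

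The cell type was checked on 8 macrophage markers, all of which had a gene-end region, in all 8 libraries for 7. None of 5 T cell markers had one. Of 5 markers each, 2 did for B cells, 2 for neutrophils, 3 for progenitors, 3 for erythroid cells and 1 for fibroblasts. In all 8 libraries it was 2, 1, 2, 2 and 0, in the same order. Of all protein-coding genes 48.1% had such a constant region, counting also regions whose nearest gene is another one. Called regions at macrophage markers numbered 41 to 44 untreated and 42 to 45 with LPS, and those at progenitor markers 19 to 25 and 18 to 26. Their part in the results was not tested.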

How the data were processed

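Peaks of 8 ATAC-seq libraries (4 groups of 2) were used as the authors deposited them: one list of peak positions per library, each peak with a chromosome, start and end and no score, count or signal value. Bowtie2 2.3.0, Picard and MACS2 2.1.1 are named in the submitters' processing notes. Lists held 54027 to 60117 peaks, and since depth is unknown no interval was computed.

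GRCm38 (mm10) is the build in those notes, and only the 21 main chromosomes were kept. Peaks were merged at 1 base of overlap and assigned to the nearest protein-coding gene body within 100 kb (RefSeq table of GRCm38.p6), ties included. Widths were summed per region and library. Log2 widths, centred on each library's median, were tested with limma 3.58.1 in R 4.3.3 as a 4-group model, with Benjamini-Hochberg adjustment over all regions called in 8 libraries and a threshold of 0.05. All other tables were made with Python 3.11.15 and pandas 2.3.3.

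The members, lists and rules were chosen with earlier results of these data known. Named were the widest gene-end region of each gene, every region with a call difference, and those nearest the width threshold. The alternatives tried were 50% coverage of a region, equal list length, a limit of 25 kb, merging across 100 bases, no centring, longest peak, a replicate block, regions in at least 6 libraries, a trended robust prior, and each library left out.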

Additional observations from a re-analysis of the deposited data

Results flagged for a closer look

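At the Cdk6 region 0.904 kb inside the gene's start (chromosome 5, 3341908 to 3342507), the genotypes had opposite call patterns with LPS. In WT it was called in both LPS libraries, with a mean width of 417 bases (551 and 283), and in neither untreated one. In KO it was called in both untreated libraries (261 and 241 bases) and in neither LPS one. The difference was not tested. The same pattern held for 27 of all 87260 regions (0.0309%) and its reverse for 21 (0.0241%). With at least 50% of the region covered, none of its 4 call differences was kept.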

How the results depend on the processing

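Of the 36 genes' call counts, those gained in both genotypes were 2 with at least 50% of a region covered and 4 at equal list length (widest 54027 peaks of each list). At equal list length 7 regions were lost in KO, 1 in both genotypes and 5 were WT only with LPS. Within 25 kb, which keeps 151 of the 191 regions, 5 were gained and 7 lost in KO, 4 were WT only untreated and 4 WT only with LPS. At equal list length 3 of the 7 regions WT only untreated kept that pattern and 8 of the 13 lost in WT, and with 50% covered 4 of the 8 WT only with LPS. Added after seeing the data, regions WT only in both treatments were 2 with 50% covered, and KO only in both 1 at equal list length; each ranged from 0 to 2 without 1 library (WT only 2 without WT untreated library 1 and 1 without KO LPS library 1, KO only 2 without WT untreated library 2). Merging across gaps of 100 bases moved no count by over 1.5 times. Shares over all regions for the call counts at these settings, and with 1 library left out, are not given here. These counts therefore describe the members only. Without centring 1 of 94 members, at Cdk6, passed the width test with LPS (log2 difference -0.66, limma adjusted p = 0.0438). Of all 36009 regions 177 then passed as wider and 514 as narrower. Among regions in at least 6 libraries 1 of 112 members passed, at Mki67, with 1 untreated WT library in its fit. Of all 44471 such regions 246 passed as wider and 183 as narrower. When 1 library was left out, an arm of 1 library is met more easily, so counts can only rise. Gains ranged from 6 to 14 in WT, 8 to 18 in KO and 1 to 2 in both. Losses ranged from 13 to 20 in WT, 11 to 17 in KO and 5 to 7 in both. WT only ranged from 7 to 17 untreated and 8 to 15 with LPS, and KO only from 3 to 8 and 3 to 12. Moves above 1.5 times came without these libraries. Without WT untreated library 1, 10 were gained and 20 lost in WT and 17 were WT only untreated. Without WT untreated library 2, 14 were gained in WT and 6 were KO only untreated. Without WT LPS library 1, 9 were KO only with LPS. Without WT LPS library 2, 14 were gained in WT, and with LPS 15 were WT only and 5 KO only. Without KO untreated library 1, 13 were gained and 17 lost in KO, and untreated 11 were WT only and 7 KO only. Without KO untreated library 2, 11 were WT only and 8 KO only untreated. Without KO LPS library 1, 14 were gained in KO, and with LPS 14 were WT only and 11 KO only. Without KO LPS library 2, 18 were gained in KO, and with LPS 13 were WT only and 12 KO only. Gains in both genotypes were 2 without WT untreated library 1 or 2, WT LPS library 2 or KO LPS library 2. Every width count at the members stayed at 0 to 0. The untreated and LPS libraries of the same genotype and number carry the same code in their titles, and the labels do not say whether it marks an animal. They deviated together with correlations of only 0.0537 in WT and 0.0544 in KO, so the pairing is not settled. With the replicate block 0 members passed, and 0 of all regions against 392 without it. Depth is unknown, so an uncalled region may be a shallow one.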
